A study of Mus musculus with 16 samples.

Results

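The genes described here are 9 that mature oligodendrocytes use to build and hold myelin: Mbp, Mog, Mag, Mobp, Cnp, Mal, Cldn11, Opalin and Ermn. They were chosen by name and found by Ensembl identifier among the 35328 genes of a read count table from the mouse dorsal hippocampus. All 9 passed the count filter that left 17830 genes for testing. The study asked whether chronic caffeine changes hippocampal transcription at rest and after spatial learning. RNA-Seq was performed on C57Bl6/J mice that drank water or caffeine at 0.3 g/L for 2 weeks from 8 to 9 weeks of age, with 4 mice in each of 4 groups. Home cage water mice (mice 6, 8, 11 and 20) and home cage caffeine mice (2, 9, 14 and 17) were resting, and learning water mice (24, 33, 36 and 38) and learning caffeine mice (22, 27, 30 and 40) had been trained for 3 days in the Morris water maze and were taken 1 hour later. The maze is a task in which mice learn the place of a hidden platform. No group swam without training, so effects of learning and of the swimming and handling in training cannot be told apart. Each library came from 1 mouse, and the tissue was bulk, with no sorting of cells, so a difference in the number of oligodendrocytes and a difference in the RNA of each oligodendrocyte cannot be told apart. Total counts per mouse ranged from 23078094 to 49949281.

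Oligodendrocytes wrap axons of the central nervous system with layers of their own membrane. Where the layers are pressed together they form compact myelin, and where cytoplasm remains between them, at the edges and next to the axon, they form non-compact loops and channels. The wrapping speeds conduction and supports the axon, and in the hippocampus myelinated axons lie mainly in the fibre tracts around and between the neuron layers. Members of the SOX family of transcription factors, above all SOX10, and the factor MYRF switch on many myelin genes when a precursor cell matures.

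On the GRCm38 (mm10) build, GENCODE M21 places Mog at chr17:37010743-37023398 on the minus strand and Mag at chr7:30899176-30914873 on the minus strand. Mobp lies at chr9:120149707-120181484 (plus), Cnp at chr11:100574904-100591729 (plus) and Mal at chr2:127633226-127656695 (minus). Cldn11 lies at chr3:31149920-31164324 (plus), Opalin at chr19:41061710-41077113 (minus) and Ermn at chr2:58045113-58052864 (minus). With Mbp the genes are on 8 chromosomes, and only Mal and Ermn share one. Counts of 3 members carry an uncertainty from overlapping genes. For Cnp, 154 exonic bases are shared with Dnajc7, and for Ermn 237 with Galnt5, both on the opposite strand. The sources do not state whether the strand was used in counting, so the effect on Cnp and Ermn is not known. For Mobp, 79 exonic bases are shared with Gm38642 on the same strand, where the strand cannot tell the genes apart.

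The RefSeq promoter table for GRCm38.p6 held 8 of the 9 members. The 250 bases before each start were searched on both strands for 2 SOX letter strings (ACAAAG and ACAATG), for CTGGCAC, which MYRF binds, and for the E-box CAGCTG, which reads the same on both strands. The ACAAAG string was found in 4 of the 8 members, Cnp, Mag, Mobp and Opalin, against 16.5% of 32851 promoters of all genes. CTGGCAC was found in Cnp and Mag, against 4.19% of promoters. ACAATG was found in Ermn, against 10.7%, and CAGCTG in none of the 8, against 13.0%. Mog, Mal and Cldn11 held none of the 4 strings in this window. A member was counted if the window of any of its starts held the string, while the percentages count single promoters. The 8 members had 10 promoters, and Mag had 3 starts. Opalin, the member that the comparisons below single out, is among the 4 members with ACAAAG, and the others allow it to be compared. For each of these 4 members 1 promoter is shown. Each is read 5′ to 3′ on its gene's strand up to the first base of the gene in GENCODE, and capitals mark a match. ACAAAG on the other strand reads CTTTGT. The stretches are Opalin (chr19:41077114-41077363, minus strand), Mag (chr7:30914874-30915113, minus), Cnp (chr11:100574689-100574903, plus) and Mobp (chr9:120149492-120149706, plus).
Opalin: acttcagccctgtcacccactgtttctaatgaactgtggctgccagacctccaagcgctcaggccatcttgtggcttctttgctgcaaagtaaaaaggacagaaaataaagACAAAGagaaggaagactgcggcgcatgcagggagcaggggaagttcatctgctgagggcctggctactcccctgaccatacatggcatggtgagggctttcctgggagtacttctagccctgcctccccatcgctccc
Mag: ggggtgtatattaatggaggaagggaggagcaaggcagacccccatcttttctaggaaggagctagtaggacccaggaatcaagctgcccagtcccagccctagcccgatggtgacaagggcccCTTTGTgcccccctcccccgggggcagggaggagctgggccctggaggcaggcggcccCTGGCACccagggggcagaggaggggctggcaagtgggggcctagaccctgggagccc
Cnp: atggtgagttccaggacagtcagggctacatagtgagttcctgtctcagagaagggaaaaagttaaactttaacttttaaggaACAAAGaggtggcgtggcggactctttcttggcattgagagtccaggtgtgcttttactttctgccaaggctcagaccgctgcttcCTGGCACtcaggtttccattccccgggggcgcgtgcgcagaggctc
Mobp: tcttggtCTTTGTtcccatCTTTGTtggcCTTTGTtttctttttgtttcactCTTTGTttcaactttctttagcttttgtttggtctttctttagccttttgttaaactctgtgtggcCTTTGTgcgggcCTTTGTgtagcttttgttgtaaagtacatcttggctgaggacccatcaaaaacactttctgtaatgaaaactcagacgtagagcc
Opalin held 1 match to ACAAAG, from 139 to 134 bases before the start. Mobp held 6 matches, all on the other strand. A match is a string of letters and no evidence that a factor was bound in these mice.

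Levels are given as CPM, which are counts scaled to the size of each library, here after TMM normalization. Per kilobase of exon, which allows levels to be compared between genes, the order over the 16 mice (mean ± SD) was Mbp (353 ± 99.3 CPM per kilobase), Mobp (147 ± 46.5), Mal (107 ± 32.2), Cnp (96.8 ± 24.9), Cldn11 (61.5 ± 19.6), Mag (53.9 ± 15.9), Mog (37.3 ± 9.96), Ermn (24.2 ± 8.09) and Opalin (13.2 ± 4.15). Each neighbour pair kept this order in 16 of 16 mice, except that Mal was above Cnp in 13 of 16. The exon length counts every annotated transcript, so the order also rests on the annotation: Mbp has 16 transcripts.

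The genes of compact myelin were led by Mbp, which binds the inner faces of the membrane together. In the order of mice given above, Mbp was at 3544, 2514, 2353 and 2708 CPM in home cage water mice and at 3563, 4086, 2397 and 3436 CPM in home cage caffeine mice. In learning water mice it was at 5364, 2773, 2441 and 2305 CPM, and in learning caffeine mice at 3141, 2368, 2399 and 2441 CPM. Mouse 24 stood highest, mouse 9 next, and the ranges of all 4 groups overlapped. Mobp, another basic protein of compact myelin, was at 1043, 773, 828 and 1018 CPM in home cage water mice and at 1116, 1306, 736 and 1108 CPM in home cage caffeine mice. After learning it was at 1909, 869.9, 715 and 786 CPM in water mice and at 1409, 879, 774 and 787 CPM in caffeine mice. For Mobp the second highest mouse was mouse 22 of the learning caffeine group, and again the groups overlapped. Mal, a small proteolipid of compact myelin, was at 317, 240.5, 254 and 321 CPM in home cage water mice and at 306, 383, 227 and 261 CPM in home cage caffeine mice. Its levels in learning mice were 572, 264, 228 and 269.9 CPM with water and 393, 271, 229.7 and 236 CPM with caffeine. As for Mobp, mice 24 and 22 were the highest for Mal, and its lowest value was in a home cage mouse, mouse 14.

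Cldn11, the claudin of the tight junctions that seal the layers, was at 138, 89.6, 95.5 and 114 CPM in home cage water mice and at 123, 170.4, 88.9 and 117 CPM in home cage caffeine mice. With learning it was at 221, 108, 91.1 and 85.0 CPM in water mice and at 127, 92.1, 89.4 and 89.5 CPM in caffeine mice. Mice 24 and 9 were again the highest, and no group was apart from another. Cnp, an enzyme of the cytoplasmic channels of non-compact myelin, was at 411, 285, 313 and 362 CPM in home cage water mice and at 416, 489.7, 299 and 361 CPM in home cage caffeine mice. The learning values were 594, 326, 284 and 290.4 CPM with water and 389, 277, 275 and 267 CPM with caffeine. For Cnp, 4 of the 8 learning mice (36, 27, 30 and 40) were below all home cage mice, and the other 4 were not. Ermn, a cytoskeletal protein that appears late in oligodendrocyte maturation, was at 91.7, 84.6, 54.9 and 71.6 CPM in home cage water mice and at 94.9, 131, 76.7 and 69.8 CPM in home cage caffeine mice. Learning water mice had 177, 84.3, 77.3 and 86.2 CPM of it and learning caffeine mice 94.8, 61.8, 81.1 and 71.7 CPM. Ermn spanned the widest range of the 9, 3.23-fold against 2.23-fold for Cnp, and its lowest value was in home cage water mouse 11, which was the lowest mouse for no other member.

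Of the surface proteins, Mag, an adhesion molecule of the innermost layer facing the axon, was at 250.1, 177, 179 and 218 CPM in home cage water mice and at 267, 317, 184 and 244 CPM in home cage caffeine mice. It was at 399, 199, 173 and 179 CPM in learning water mice and at 223, 156, 176 and 168 CPM in learning caffeine mice. Of the 8 learning mice, 4 (36, 27, 30 and 40) had less Mag than any home cage mouse. Mog, which sits on the outermost layer, was at 74.7, 50.6, 55.0 and 67.9 CPM in home cage water mice and at 74.5, 91.7, 54.3 and 67.8 CPM in home cage caffeine mice. Learning mice had 108, 57.1, 51.6 and 51.8 CPM with water and 65.0, 47.1, 47.8 and 53.3 CPM with caffeine. The highest mice were 24 and 9, as for Mag, and the groups overlapped. Opalin, a transmembrane glycoprotein of oligodendrocytes, was the least abundant member, with 897 to 2780 raw counts per mouse. It was at 50.9, 33.3, 37.4 and 44.3 CPM in home cage water mice and at 52.5, 54.6, 33.2 and 49.3 CPM in home cage caffeine mice. In learning mice it was at 63.6, 33.3, 28.1 and 29.2 CPM with water and 36.2, 28.3, 22.01 and 24.8 CPM with caffeine. For Opalin, 5 of the 8 learning mice (36, 38, 27, 30 and 40) lay below all 8 home cage mice, and mice 33, 22 and 24 did not.

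**Figure D1:**
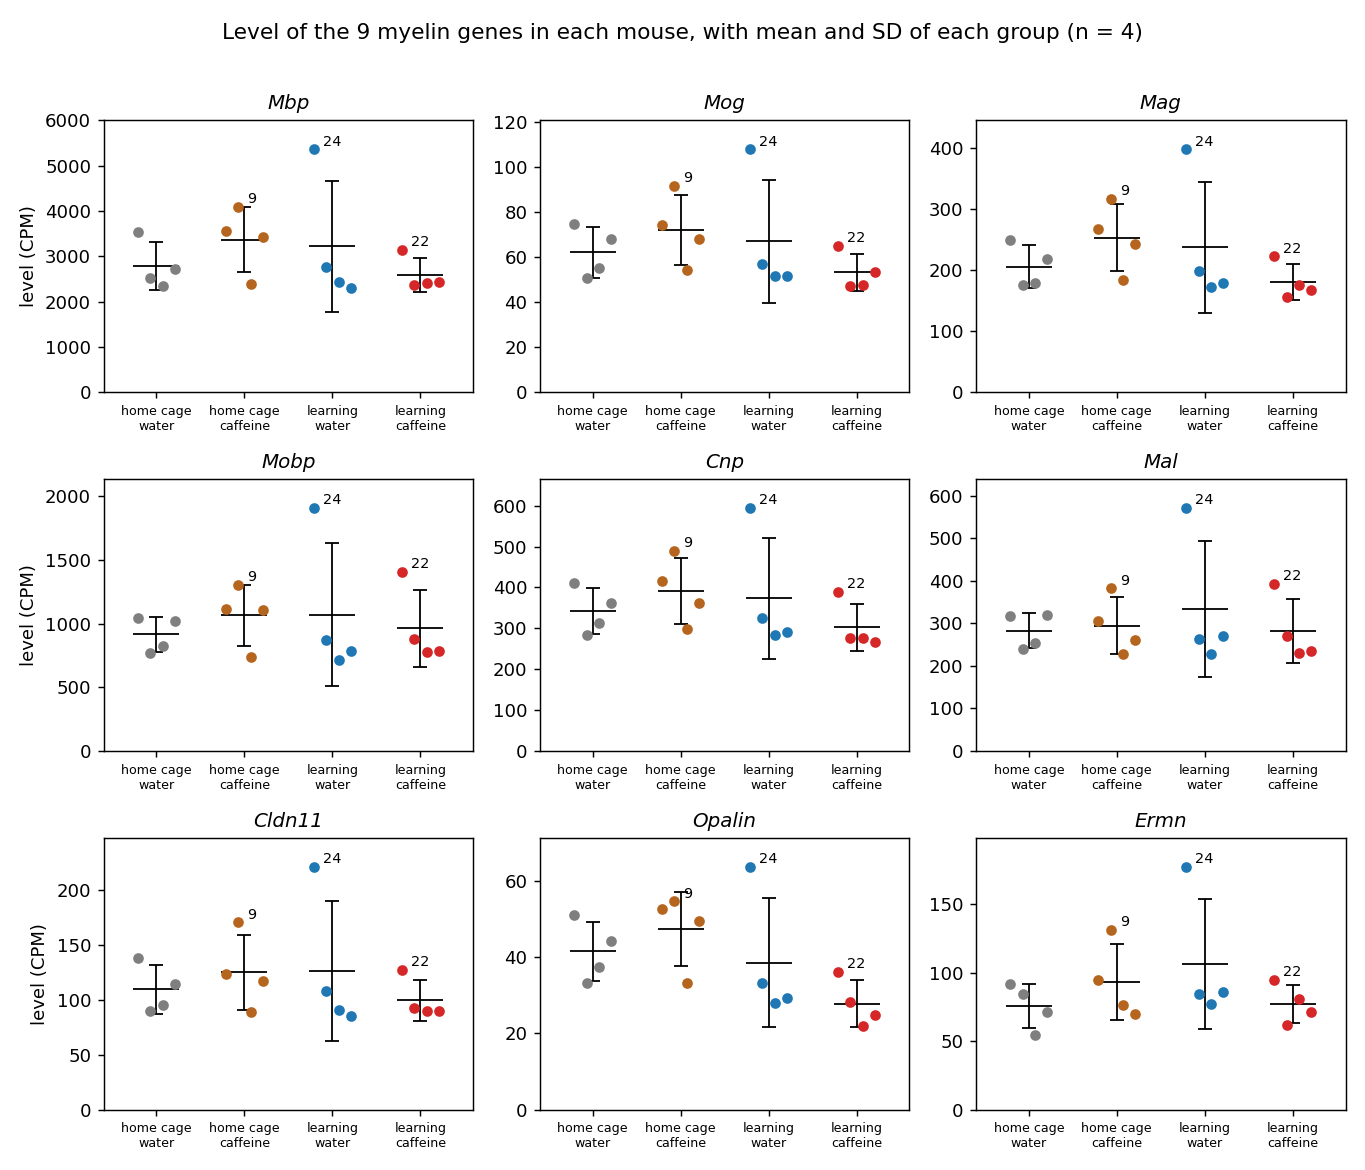
Level of each of the 9 genes (CPM, linear axis from 0) in each mouse (points), with the mean and SD of each group of 4 (horizontal line and bars). Learning water mouse 24 is the highest of the 16 mice in every panel, and mouse 22 is the highest of the learning caffeine group in every panel.

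The 9 genes moved together from mouse to mouse. They took between 0.406% and 0.933% of all counts of a mouse, and Mbp alone made up 53.4% to 60.1% of that. The mean share ± SD (n = 4) was 0.483% ± 0.0810 in home cage water mice, 0.576% ± 0.121 in home cage caffeine mice, 0.553% ± 0.255 in learning water mice and 0.454% ± 0.0841 in learning caffeine mice. The learning water group held both the highest share, 0.933% in mouse 24, and the lowest, 0.406% in mouse 38. Without mouse 24 the mean of that group was 0.426%. All 9 genes were at their highest in mouse 24, at 1.98 times (Cnp) to 2.41 times (Mobp) the mean of the other 3 learning water mice, and at 1.16 to 1.45 times the next highest of all mice. Mouse 22 stood apart in the learning caffeine group in the same direction, at 1.31 times (Mbp) to 1.73 times (Mobp) the mean of the other 3, with a share of 0.580% against 0.409% to 0.416%.

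**Figure D2:**
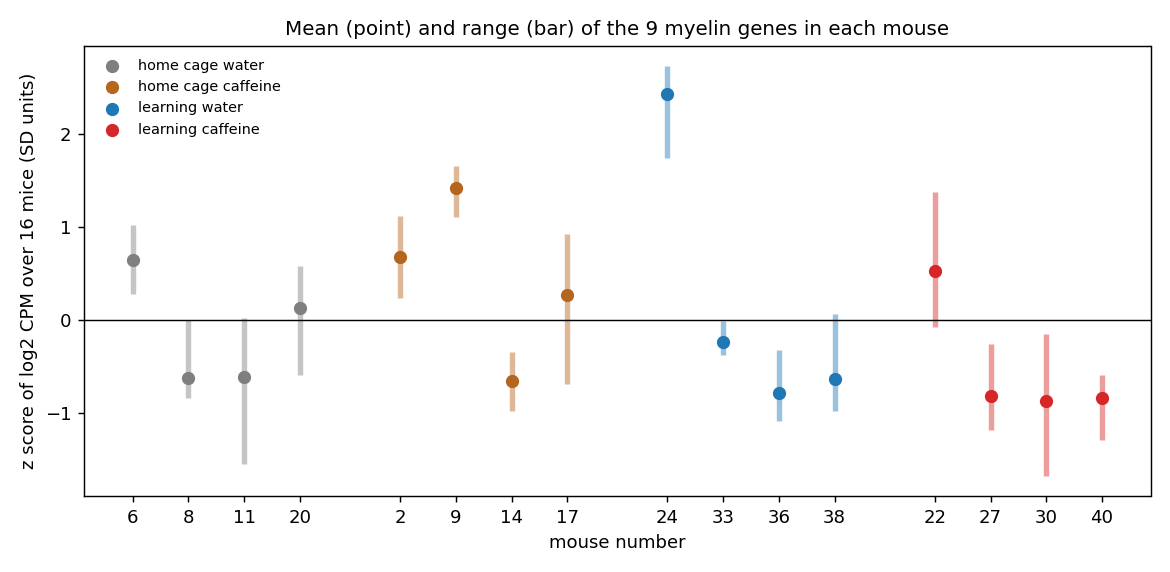
Mean (point) and lowest to highest value (bar) over the 9 genes of the z score of log2 CPM, which is the distance from the mean of the 16 mice in SD units, for each mouse by its number. Mouse 24 has a mean of 2.42, with the 9 genes from 1.74 to 2.72, while the other 3 learning water mice and learning caffeine mice 27, 30 and 40 have means from -0.87 to -0.24.

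Over the 36 pairs of genes, Pearson's r of log2 CPM across the 16 mice had a median of 0.91, from 0.58 for Opalin with Ermn to 0.99 for Mog with Mag. Within the groups, after subtracting each group's mean, the median was 0.95. The 16 points share the libraries and their scaling, and mouse 24 weighs on them: without it the median over pairs was 0.85, and without mice 24 and 9 it was 0.81. Opalin and Ermn had the lowest median r with the other members, 0.86 and 0.80 against 0.87 to 0.95 for the other 7. This shared variation was wide for genes so abundant. The SD of log2 CPM within groups had a median of 0.38 over the 9 genes, 0.15 over all 17830 genes tested and 0.093 over the 5771 genes at least as abundant as Opalin. A fold change of a member between 2 groups therefore had a median SE of 0.23 on the log2 scale, against 0.10 over all genes.

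Among all other genes, the 10 with the highest r with the mean z score of the members over the 16 mice were Galnt6 (0.99), Tspan2, Efhd1, Lpar1, Gatm, Unc5b, Trim59, Cers2, Tppp3 and Slain1 (0.97). Of these, Tspan2, a tetraspanin of myelinating cells, and Tppp3, a tubulin-binding protein, were on the list of other myelin genes, and Cers2, the ceramide synthase for very long chain lipids, was on the list of myelin lipid genes. Without mouse 24 the r of the 10 ranged from 0.94 to 0.98. Likeness over these mice carries the same libraries and the same mouse 24 as the values above.

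Lists of other genes were read beside the members. A list of 32 other myelin and mature oligodendrocyte genes had a mean z score with r = 0.98 to that of the members, 11 regulators of oligodendrocyte transcription 0.95, and 10 genes of myelin lipid synthesis 0.91. For 12 markers of oligodendrocyte precursors and newly formed cells r was 0.58, and for 10 axonal partners of myelin 0.22. Markers of other cells had r of -0.05 (6 neuron genes), -0.29 (7 astrocyte genes), 0.17 (7 microglia genes), -0.14 (7 endothelial genes), 0.16 (8 choroid plexus genes), 0.21 (8 thalamus genes) and -0.65 (8 genes of dentate granule and CA neurons). Over pairs of genes within a list, the median r was 0.93 for choroid plexus, 0.52 for microglia and 0.35 for endothelial genes. It was 0.15 for astrocyte, 0.13 for neuron, 0.06 for precursor, 0.03 for thalamus and -0.13 for dentate and CA neuron genes. A mean z score or sum of a list with such a low median cannot be read as the level of 1 cell type. In mouse 24 the summed level of the 32 other myelin genes was 9195 CPM, against 4552 to 7483 in the other 15 mice. The precursor markers summed to 824 CPM in mouse 24, against 633 to 766. Bcas1 (145 to 321 CPM over the 16 mice) and Tnr (196 to 334 CPM) weigh most in this sum, so it is no level of precursors as a whole. The dentate and CA neuron markers summed to 530.2 CPM in mouse 24, the lowest of the 16 mice, against 552 to 759. In mouse 24 the choroid plexus sum (428 CPM) was the sixth highest, the thalamus sum (153 CPM) the seventh and the mitochondrial share (3.44%) the tenth. The part of any of these in the level of the members was not tested. All 9 members were abundant in every mouse. Of 6 markers of Schwann cells, which make the myelin of peripheral nerves, Pmp2 had 0 counts in all mice, Dhh 1 to 12, Ncmap 4 to 19 and Prx 12 to 34 counts per mouse. Egr2, which neurons also express as an immediate early gene, had 3 to 463 counts and was called higher after learning.

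Whether caffeine changed these genes at rest was read from the home cage groups. Each of the 9 was on average higher in caffeine than in water mice, by 0.06 (Mal) to 0.30 (Ermn) on the log2 scale, and none was called. The median of the 9 log2 fold changes was 0.21, against -0.003 over all genes. Mag was at 206 ± 35.2 CPM (SD, n = 4) in water and 253 ± 55.0 CPM in caffeine mice, a log2 fold change of 0.30 (SE 0.22, adjusted p = 0.997). Mbp was at 2779.7 ± 530.0 and 3370.3 ± 708 CPM, a log2 fold change of 0.28 (SE 0.22, adjusted p = 0.997). Here and throughout, a gene was called where edgeR's quasi-likelihood test over all genes gave an adjusted p under 0.1. No gene of the whole table was called in this comparison (0%), and at an unadjusted p under 0.05 there were 0 members against 3.57% of all genes. A higher average in caffeine mice was seen for 48.7% of all genes, and groups that did not overlap for 1.99% of all genes and 0 members. DESeq2 also called 0 members. The 95% intervals of the members reached from -0.46 (Mal) to 0.82 (Ermn). Home cage caffeine mouse 9 was the highest of its group for all 9 genes. Without it the median was 0.09.

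After learning, the same comparison had the other sign: each of the 9 was on average lower in caffeine than in water mice, by -0.15 (Mobp) to -0.48 (Opalin), with a median of -0.34, and none was called. Opalin was at 38.5 ± 16.9 CPM in learning water and 27.8 ± 6.14 CPM in learning caffeine mice (log2 fold change -0.48 (SE 0.23, adjusted p = 0.999)). Ermn was at 106 ± 47.6 and 77.3 ± 14.03 CPM (log2 fold change -0.46 (SE 0.24, adjusted p = 0.999)). Of all genes 0% were called, and at an unadjusted p under 0.05 there were 0 members against 3.93% of all genes. The average was above 0 for 48.1% of all genes, and the 2 groups did not overlap for 2.6% of all genes and 0 members. DESeq2 called 0 members here too. The lower average rested on mouse 24: without it the median was 0.01, and Mobp, Mal, Cldn11, Mbp and Cnp had values above 0, the highest 0.29 (Mobp).

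Whether learning changed these genes was first read in water mice. On average 8 of the 9 were higher after learning, with a median of 0.21, and Opalin was lower. None was called. Ermn had the largest value, 0.49 (SE 0.25, adjusted p = 0.452), from 75.7 ± 16.2 CPM in home cage water mice to 106 ± 47.6 CPM in learning water mice. Opalin went from 41.5 ± 7.75 to 38.5 ± 16.9 CPM, a log2 fold change of -0.10 (SE 0.23, adjusted p = 0.891). Of all genes 0.97% were called, and 11.8% had an unadjusted p under 0.05, against 0 members at both thresholds and 0 members called by DESeq2. Of all genes 48.5% were on average higher, and 6.99% had groups that did not overlap, against 0 members. Without mouse 24 the median turned to -0.19, and 8 of the 9 genes were lower after learning, from -0.15 (Mbp) to -0.45 (Opalin), with Ermn at 0.13, and none was called where that fit called 0.994% of all genes.

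In caffeine mice Opalin fell after learning and was the 1 member called of 9. It was at 47.4 ± 9.75 CPM in home cage caffeine mice and 27.8 ± 6.14 CPM in learning caffeine mice, a log2 fold change of -0.77 (SE 0.23, adjusted p = 0.0871) with a 95% interval of -1.26 to -0.28. Learning caffeine mice 27, 30 and 40 were below every home cage caffeine mouse, and mouse 22 was above home cage caffeine mouse 14. The other 8 genes were on average lower too, from -0.06 (Mal) to -0.48 (Mag, adjusted p = 0.251), and the median of the 9 was -0.37 against -0.01 over all genes. Without home cage caffeine mouse 9 that median was -0.25. Of all genes 5.28% were called, 2.13% as lower, and 18.8% had an unadjusted p under 0.05, against 2 members, Opalin and Mag. A higher average was seen for 47.1% of all genes and 0 members, and groups that did not overlap for 10.9% of all genes and 0 members. Opalin was also called by DESeq2 and in the other 5 planned fits made with all mice or with these 8 mice alone, at adjusted p from 0.0155 to 0.0883. It was not called at an adjusted p under 0.05, nor in 8 of the 16 fits made without 1 mouse (home cage water 20, home cage caffeine 2, 9 and 17, learning water 33, learning caffeine 27, 30 and 40), where adjusted p was 0.101 to 0.227. Without mouse 24 both Opalin and Mag (-0.48, adjusted p = 0.0749) were called, in a fit that called 6.84% of all genes.

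**Figure D3:**
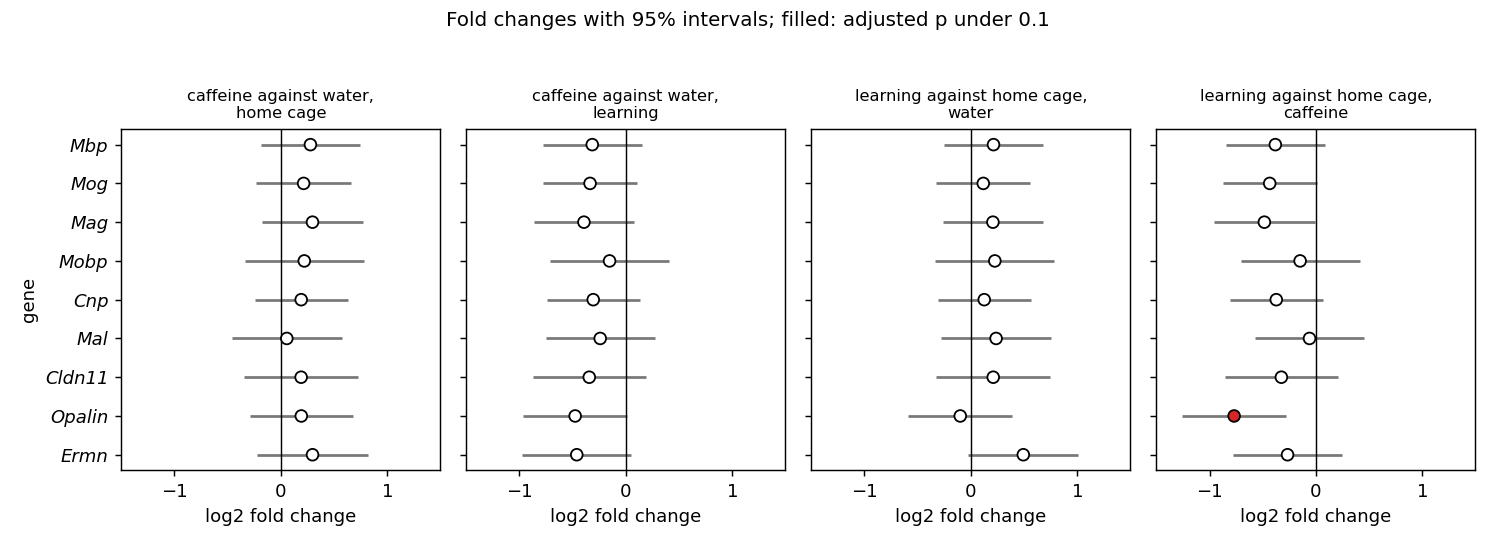
Log2 fold change (points) and 95% interval (lines) of each gene from edgeR in 4 comparisons of 4 mice with 4, with a filled point for an adjusted p under 0.1. Opalin in learning against home cage caffeine mice, at -0.77, is the filled point, and every other interval but that of Mag in the same panel includes 0.

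Whether caffeine changed the response to learning is the difference between the 2 learning comparisons. All 9 genes had a more negative response in caffeine mice, with a median difference of -0.55, from -0.30 (Mal) to -0.76 (Ermn), and none was called. Ermn had a difference of -0.76 (SE 0.35, adjusted p = 0.99997) and Mag of -0.69 (SE 0.32, adjusted p = 0.99997), and these were the 2 members with an unadjusted p under 0.05, against 3.63% of all genes. Of all genes 0% were called and 50.8% had a difference above 0. DESeq2 called 0 members. The comparisons share their groups: the learning water mice enter the learning water and the learning caffeine against water comparisons with opposite signs, so that mouse 24 alone moves both and the difference. Without mouse 24 the median difference was -0.22.

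Averaged over water and caffeine mice, the log2 fold change after learning was -0.43 (SE 0.16, adjusted p = 0.107) for Opalin and between -0.16 (Mog) and 0.11 (Ermn) for the other 8. None was called and 1, Opalin, had an unadjusted p under 0.05, against 14.5% of all genes called, 6.71% as lower, and 25.5% at the unadjusted threshold. Of all genes 46% were on average higher after learning, and for 1.32% the 8 home cage and 8 learning mice did not overlap, against 0 members. DESeq2 called 0 members. Without mouse 24 there were 3 called as lower: Opalin (-0.61, adjusted p = 5.80e-03), Mog (-0.32, adjusted p = 0.0627) and Mag (-0.32, adjusted p = 0.0643), in a fit that called 17% of all genes, 7.98% as lower. Leaving out home cage water mouse 8, home cage caffeine mouse 14 or learning caffeine mouse 22 also brought Opalin past the threshold, at adjusted p of 0.0782, 0.0589 and 0.0724. Caffeine averaged over home cage and learning mice gave a median of -0.06 over the 9 genes, from -0.14 to 0.03, with 0 called, 0 at an unadjusted p under 0.05 against 4.07% of all genes, and 0 called by DESeq2. Of all genes 47.7% were above 0 and for 0.00561% the 8 water and 8 caffeine mice did not overlap, against 0 members. Without mouse 24 the median was 0.11.

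Opalin's level relative to the other members set learning mice apart from home cage mice. Its log2 CPM minus the mean log2 CPM of the other 8 genes was -2.66, -2.81, -2.62 and -2.66 in home cage water mice and -2.62, -2.87, -2.80 and -2.55 in home cage caffeine mice. It was -3.05, -2.97, -3.02 and -3.01 in learning water mice and -3.16, -2.99, -3.37 and -3.19 in learning caffeine mice. The 8 learning mice were all lower than the 8 home cage mice, mouse 24 included. None of the other 8 genes had ranges that did not overlap in this way. Of all 17830 genes, 7 (0.0393%), Opalin among them, were lower without overlap in learning mice when measured against the mean of these 8 genes and 5 (0.028%) were higher. These shares are no fair background for Opalin. The subtraction adds the spread of these 8 genes to any gene that does not vary with them. The SD within groups had a median of 0.38 over the members and 0.15 over all genes tested. Without the subtraction 1.32% of all genes did not overlap between the 8 home cage and 8 learning mice. This relative measure was chosen after Opalin's values were seen.

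**Figure D4:**
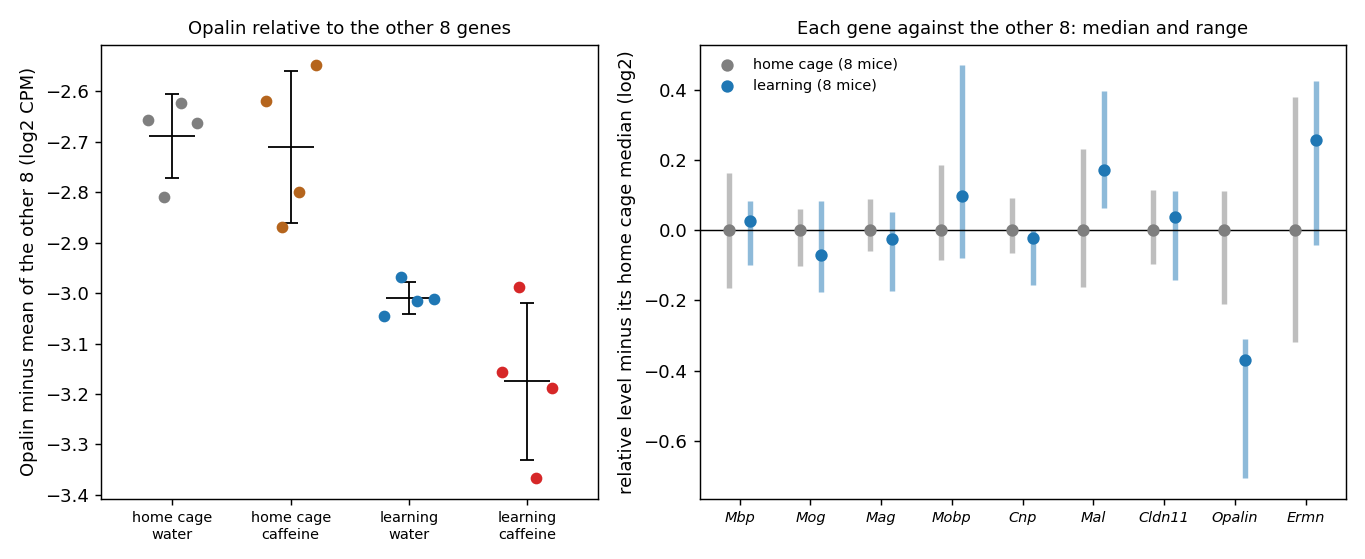
Left, Opalin's log2 CPM minus the mean of the other 8 genes in each mouse (points), with the mean and SD of each group of 4. Here the 8 learning mice lie from -3.37 to -2.97 and the 8 home cage mice from -2.87 to -2.55. Right, for each gene, the median (point) and range (bar) of its log2 CPM minus the mean of the other 8. These are drawn as the difference from the gene's home cage median. The learning and home cage ranges do not overlap for Opalin and overlap for the other genes.

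The same was tested with edgeR by giving each mouse's mean z score of the 32 other myelin genes as a covariate, a fit also added after the data were seen. With that covariate Opalin was lower in learning than in home cage mice, averaged over treatments, by a log2 fold change of -0.33 (SE 0.07, adjusted p = 9.83e-03). It passed in all 16 fits made without 1 mouse, with values from -0.36 to -0.28 and adjusted p from 3.97e-03 to 0.0532. Ermn (0.24, SE 0.07, adjusted p = 0.0456) and Mal (0.20, SE 0.07, adjusted p = 0.0800) were higher by the same test, so that 3 of the 9 members were called, against 14% of all genes. Ermn passed in 14 of these fits, and not without home cage water mouse 11 (adjusted p = 0.111) or learning water mouse 24 (adjusted p = 0.162). Mal passed in 8, and not without home cage water mouse 6 or 8, home cage caffeine mouse 2 or 17, learning water mouse 24 or 38 or learning caffeine mouse 22 or 27, where adjusted p was 0.112 to 0.298. Within water mice alone Opalin's value was -0.31 (adjusted p = 0.170) and within caffeine mice alone -0.34 (adjusted p = 0.128). Neither was called, against 1.68% and 3.54% of all genes, and Mal was called in caffeine mice (0.39, SE 0.10, adjusted p = 0.0609), but not without home cage caffeine mouse 2, 14 or 17, learning water mouse 24 or learning caffeine mouse 22 or 27, where adjusted p was 0.101 to 0.291. No member was called for caffeine against water with this covariate in home cage or in learning mice, nor any other gene (0%). The relative fall was not particular to Opalin. Of the 32 genes behind the covariate, Cd9 (-0.19, SE 0.04, adjusted p = 0.0141) and Enpp2 (-0.55, SE 0.17, adjusted p = 0.0622) were also called lower averaged over treatments. Omg was not (-0.13, adjusted p = 0.149). Without mouse 24 Cd9 was still called (adjusted p = 0.0912) and Enpp2 was not (adjusted p = 0.157). In caffeine mice Cd9 was called (-0.27, adjusted p = 0.0579), but not without mouse 24 (adjusted p = 0.166).

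Of the 32 other myelin and mature oligodendrocyte genes, 31 were on average higher with caffeine in home cage mice (median 0.23). After learning, 32 were lower with caffeine (median -0.30). With learning, 27 were higher in water mice (median 0.19) and 31 lower in caffeine mice (median -0.37). Of all genes 48.7%, 48.1%, 48.5% and 47.1% were higher in these comparisons, in the same order. The 32 genes moved with the members (r = 0.98 of mean z scores), so their signs are not separate results. In mouse 24 they summed to 9195 CPM, against 5439, 4934 and 5212 CPM in learning water mice 33, 36 and 38. The mean sum was 5708 CPM in home cage water and 4966 CPM in learning caffeine mice. Their signs without mouse 24 were not tested. Few of the 32 were called. In caffeine mice 2 of the 32 fell after learning, 6.25% against the 2.13% of all genes called lower and the 5.28% called either way: Cd9, a tetraspanin (-0.49, SE 0.12, adjusted p = 0.0409), and Omg, a glycoprotein of oligodendrocytes and neurons (-0.25, SE 0.08, adjusted p = 0.0913). Cd9 was at 54.5 ± 7.35 CPM in home cage caffeine mice and 38.9 ± 2.49 CPM in learning caffeine mice, and the groups of both genes did not overlap, as for 10.9% of all genes. Averaged over treatments 2 of the 32 fell, no larger a share than the 6.71% of all genes called lower, Cd9 (-0.26, SE 0.09, adjusted p = 0.0668) and Enpp2 (-0.62, SE 0.19, adjusted p = 0.0590). Enpp2, which makes lysophosphatidic acid, is also a gene of the choroid plexus, whose 8 markers summed to between 115 and 2349 CPM and averaged highest in home cage water mice. The part of choroid plexus tissue in its fall was not tested.

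Of the 11 regulators of oligodendrocyte transcription, St18, a zinc finger factor, rose after learning in water mice (0.54, SE 0.14, adjusted p = 0.0934) and averaged over treatments (0.45, SE 0.10, adjusted p = 8.57e-03), where 0.639% and 7.81% of all genes were called higher. It was at 41.1 ± 6.83 CPM in home cage water, 38.5 ± 8.31 in home cage caffeine, 59.9 ± 7.82 in learning water and 49.3 ± 3.72 in learning caffeine mice. St18 is also expressed by neurons. Nkx2-2, a homeobox factor of the oligodendrocyte lineage, fell after learning in caffeine mice (-0.73, SE 0.22, adjusted p = 0.0880, 2.13% of all genes called lower), from 4.16 ± 0.674 to 2.50 ± 0.348 CPM. Sox10 was at 45.3 ± 7.77, 52.1 ± 9.42, 51.5 ± 21.3 and 41.9 ± 3.82 CPM in the 4 groups in the same order and Myrf at 65.8 ± 10.9, 74.0 ± 19.0, 80.2 ± 35.6 and 70.1 ± 13.3 CPM, and neither was called. Among the 10 lipid synthesis genes, Sgms1, a sphingomyelin synthase, rose with learning averaged over treatments (0.17, SE 0.05, adjusted p = 0.0584) and the other 9 were not called, against 7.81% of all genes called higher. None of the 12 precursor and newly formed cell markers and none of the 10 axonal partners of myelin was called in any comparison. At an unadjusted p under 0.05 in the averaged learning comparison there was 1 in each of these lists, against 25.5% of all genes, Vcan of the precursor markers and Cntnap1, a protein of the junction beside the node, of the axonal partners.

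Markers of other cells also moved with learning. Of the marker lists, the median farthest from 0 was that of the choroid plexus, the tissue that secretes cerebrospinal fluid. Of its 8 markers, 4 (Folr1, Aqp1, Ttr and Kcnj13) were called lower after learning with water, against 0.331% of all genes, and the median over the 8 was -1.64 on the log2 scale. In caffeine mice 0 of the 8 were called (median -0.73), and averaged over treatments 7 were called lower (median -1.21), against 6.71% of all genes. The choroid plexus markers summed to 306 to 2349 CPM in home cage water, 190.1 to 503 in home cage caffeine, 163 to 434 in learning water and 115 to 203 CPM in learning caffeine mice.

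In caffeine mice 4 of 7 microglia markers (Aif1, C1qa and Cx3cr1 among them), 3 of 8 thalamus markers (Zic1, Plekhg1 and Synpo2) and 1 of 7 astrocyte markers (Gfap) were called lower after learning, as Opalin was, against 2.13% of all genes. The microglia markers summed to 414 to 453 CPM in home cage caffeine mice and 372 to 426 CPM in learning caffeine mice, and the thalamus markers to 138 to 187 and 131 to 142 CPM. Averaged over treatments, 4 of 7 microglia and 2 of 8 thalamus markers were called lower, against 6.71% of all genes. So were 1 of 7 astrocyte markers (Gfap), 1 of 8 dentate granule and CA neuron markers (Wfs1) and 1 of 7 endothelial markers (Cldn5). Of the 6 general neuron markers 0 were called. The mitochondrial share was 3.55% to 3.89% in home cage water, 3.46% to 4.49% in home cage caffeine, 3.29% to 3.44% in learning water and 3.23% to 3.59% in learning caffeine mice. In water mice the ranges of this share did not overlap, and in caffeine mice they did. The part of these markers and of the mitochondrial share in the lower level of Opalin, alone or relative to the other members, was not tested.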

How the data were processed

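Dorsal hippocampus RNA came from 16 mice, 4 in each of 4 groups, grouped by the labels. The authors sequenced poly(A) libraries made with a strand-keeping kit as single-end reads of 50 bases, aligned these to mm10 using STAR and Bowtie 2, counted reads per Ensembl (release 90) gene with HTSeq 0.6.1p1 after bcl2fastq 2.17.1.14 had made the reads, and deposited raw counts, which are whole numbers without normalization. Reads that aligned to more than 1 place or fell on overlapping genes were not counted, and the use of strand in counting is not given in the sources used here. No per-sample column was left unused (0).

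From these counts, edgeR 4.0.16 in R 4.3.3 applied TMM normalization, the filterByExpr filter (17830 of 35328 genes), 1 fit of all 16 libraries with group means (12 residual degrees of freedom), quasi-likelihood tests, Benjamini-Hochberg adjustment over all genes tested and calls at an adjusted p under 0.1. SE is the log2 fold change divided by the root of the F statistic, and 95% intervals use the t distribution of the fit. Log2 CPM used a prior count of 2. Symbols and positions came from GENCODE M21 (35247 of 35328 identifiers matched), promoters from RefSeq. With totals of 23078094 to 49949281 counts, counting error is small beside the spread between mice. Alternatives were DESeq2 1.42.0 (size factors, or its Wald test on 16 libraries), a minimum of 1 count in total or of 10 in every library, robust empirical Bayes, only the 8 libraries compared, an adjusted p under 0.05 and each library left out. The covariate fit for the relative level was added after the data were seen.

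The members and all lists were chosen with earlier results of these data known, so no test over a list is given. Genes named are the 9 members, the called genes of each myelin or oligodendrocyte list, the gene of smallest p of a list in the averaged learning comparison, and the 10 genes most correlated with the members. Sox10 and Myrf, and the relative level of Opalin, were chosen after values were seen. Called markers of other cells are named without values. The promoter of Mbp is not shown, and some genes that this rule names are not reported here.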

Additional observations from a re-analysis of the deposited data

Results flagged for a closer look

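In groups of 4 mice, a mouse was marked where its distance to the nearest other mouse as a share of the group's range was above the 95% critical value of Dixon's test. Of 40 groups tested, 15 had such a mouse, where chance marks about 1 in 20 groups. The members share the same mice, so these are not 15 separate events. In the learning water group it was mouse 24 for all 9 genes, the highest of the group each time: Mbp at 5364 CPM, Mobp at 1909, Mal at 571.7, Cldn11 at 220.8, Cnp at 594, Ermn at 177, Mag at 399, Mog at 108 and Opalin at 63.6 CPM. Its share of all counts on the 9 genes, 0.933%, was marked as well. In the learning caffeine group it was mouse 22, again the highest, for Mbp (3141 CPM), Mobp (1409 CPM), Cnp (389 CPM) and Cldn11 (127 CPM) and for the share of counts (0.580%). In the home cage groups no mouse was marked. No difference between the 2 learning responses or between the 2 caffeine effects of a member passed the test, so no member was marked for an effect that differed between groups.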

How the results depend on the processing

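No paired analysis was possible because the mouse numbers in the labels are unique to each mouse and no number is shared between groups. Over 54 results of single members, no value changed sign under DESeq2 size factors, DESeq2's Wald test, either count minimum or robust empirical Bayes, nor did any of the 36 that could be fitted on the 8 libraries of a comparison alone, and 2 calls changed: 0 members were called in learning against home cage caffeine mice at an adjusted p under 0.05 (1 as reported), and 1, Opalin, in the averaged learning comparison with a minimum of 1 count in total (0 as reported). Leaving out 1 mouse gave 0 to 2 members called in learning against home cage caffeine mice and 0 to 3 for learning averaged over treatments, and the median of the members ran from -0.19 to 0.33 in learning against home cage water mice, from -0.48 (without home cage caffeine mouse 14) to -0.25 (without mouse 9) in learning against home cage caffeine mice, from 0.09 to 0.33 and from -0.44 to 0.013 for caffeine in home cage and learning mice, from -0.68 to -0.22 for the difference and from -0.26 to -0.0035 for learning averaged over treatments. With the covariate these counts were 0 to 2 in water mice, 0 to 2 in caffeine mice and 1 to 3 averaged. Without Mbp the members' share of counts was 0.204% in home cage water, 0.236% in home cage caffeine, 0.233% in learning water and 0.197% in learning caffeine mice. Leaving out 1 mouse changed the sign of 21 values, none of them called. In caffeine against water home cage mice, the values ran Mal from -0.090 to 0.16. In caffeine against water learning mice, the values ran Mbp from -0.44 to 0.048, Mobp from -0.38 to 0.29, Cnp from -0.44 to 0.013, Mal from -0.43 to 0.15 and Cldn11 from -0.49 to 0.075. In learning against home cage water mice, the values ran Mbp from -0.15 to 0.36, Mog from -0.21 to 0.23, Mag from -0.16 to 0.33, Mobp from -0.21 to 0.38, Cnp from -0.19 to 0.24, Mal from -0.15 to 0.38, Cldn11 from -0.20 to 0.36 and Opalin from -0.45 to 0.029. In learning against home cage caffeine mice, the values ran Mal from -0.24 to 0.092. For the difference between the learning responses, the values ran Mobp from -0.61 to 0.064 and Mal from -0.49 to 0.10. For learning averaged over treatments, the values ran Mobp from -0.18 to 0.12, Mal from -0.10 to 0.17, Cldn11 from -0.26 to 0.037 and Ermn from -0.066 to 0.22. The cause of these changes was not tested beyond the mouse left out. Precision was limited by the spread between mice, not by depth: with 4 mice a group, 95% intervals of single members in comparisons of 4 mice with 4 were 0.876 to 1.119 wide on the log2 scale, and wider, 1.24 to 1.58, for the difference between the learning responses.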

Other observations

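The make-up of the members varied less than their sum. Mbp made up 57.0% of the members' counts in mouse 24, inside the range of the other mice, and 53.4% in mouse 22, the lowest of the 16. In mouse 22 Mobp (1.73 times the mean of the other 3 learning caffeine mice) and Mal (1.60 times) stood further out than Mbp (1.31 times), Mog (1.31 times) and Ermn (1.32 times). The pair Mobp and Mal had r = 0.96 with each other over the 16 mice, above the r of either with any other member. Opalin with Mal had r = 0.74 over all mice and 0.95 within groups, and Opalin with Mobp 0.79 and 0.98. These values were chosen after they were seen and carry no test.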
